A study of Homo sapiens with 4 samples.

Results

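The genes described here are 10 genes of the colon epithelial surface and brush border, VIL1, CDH17, GPA33, LGALS4, CEACAM5, CEACAM6, GUCY2C, PHGR1, TSPAN8 and MYO1A, out of 20098 protein-coding genes in the GENCODE annotation of hg19. They were listed by name, from what they are known to do in the intestine and with earlier results of these data known. H3K27ac, an acetylation of histone H3 that marks active promoters and enhancers, was profiled by ChIP-seq in COLO-205 (colon cancer), DU-145 (prostate cancer), and OVCAR-3 and SKOV-3 (both ovarian cancer), all of them established cell lines. No treatment is given for any line, and each was measured once. With 1 library per line there is no replicate error, so no difference between lines was tested, and a line cannot be told apart from its library. The question asked of the peak lists was whether the surface genes of colon epithelium carry the mark in the colon line and not in the others.

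Colonocytes and enterocytes carry a brush border, a dense array of microvilli on the side of the cell that faces the lumen. Each microvillus holds a core of actin filaments that is bundled by villin and tied to the membrane by a class I myosin, and the membrane around it is rich in enzymes, receptors and heavily glycosylated proteins. Cadherins, tetraspanins, galectins and the carcinoembryonic antigen family act at this surface in adhesion, membrane organisation and glycan binding. Several of these proteins are kept by colorectal tumours and serve as tumour antigens or as histological markers of intestinal origin.

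The peak lists held between 14001 (SKOV-3) and 85576 peaks (COLO-205), from 22400000 to 36000000 tags per library as computed from the deposited values. A peak passed a q-value of 0.001, and the lowest pileup of tags at any summit was between 11 and 14. A gene without a peak was therefore not detected at this depth, which does not show that the mark is absent. The SKOV-3 list is the shortest, so counts of 0 in this line weigh less. Among the markers of colon epithelium, CDX2 and HNF4A had promoter peaks in COLO-205 alone, and CDX1 and KRT20 had none in any line. The prostate luminal markers KLK2, KLK3 and HOXB13 had no promoter peak in DU-145, whereas COLO-205 had one at KLK2 and at KLK3. Of the 4 Mullerian and ovarian markers PAX8, WT1, MUC16 and EMX2, all had a promoter peak in OVCAR-3 and PAX8 alone had one in SKOV-3, but 3 had one in COLO-205 (PAX8, WT1 and EMX2) and 2 in DU-145 (PAX8 and MUC16). The strongest of these peaks had a -log10 q of 118 to 270 in OVCAR-3, above the median of 42.7 for genes with a promoter peak in that line, and of 6.87 to 10.6 in COLO-205, below its median of 12.1. In DU-145 that of PAX8 (22.3) was just above the median of 21.5 and that of MUC16 (16.7) below it. The general epithelial markers EPCAM, CDH1, KRT8 and KRT18 each had a promoter peak in COLO-205, DU-145 and OVCAR-3, while SKOV-3 had them at KRT8 and KRT18 only. Of the mesenchymal markers, ZEB1 had a promoter peak in all 4 lines and VIM in DU-145 and SKOV-3.

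A promoter peak is a deposited peak that overlaps 1 kb on either side of any annotated start of the gene. In COLO-205, 4 of the 10 genes had one (VIL1, GPA33, LGALS4 and PHGR1), where 51.3% of all protein-coding genes did. In DU-145 there was 1 of 10, at LGALS4, against 60.0% of all genes, and in OVCAR-3 again 1 of 10, at LGALS4, against 60.6%. In SKOV-3 there was none, against 31.7%. VIL1, GPA33 and PHGR1 had a promoter peak in COLO-205 alone, 3 of 10 genes, where 6.18% of all protein-coding genes had this pattern. The COLO-205 list is the longest, and when only the 14001 highest peaks of each list were kept, 1 of the 10 genes, PHGR1, had a promoter peak in COLO-205, and it had one in that line alone. The shares of all protein-coding genes at that cut were not computed, so this count cannot be read against the shares above. The other 6 genes, CDH17, CEACAM5, CEACAM6, GUCY2C, TSPAN8 and MYO1A, had no promoter peak in any line, as did 4976 of the 20098 protein-coding genes.

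The count of 3 rests on VIL1, GPA33 and PHGR1, and the bases upstream of the reference start of each are shown here. Each run of 200 bases is from hg19 and reads 5' to 3' along the strand of the gene. It ends on the base before the reference start. Capitals mark a match to 1 of the 9 motifs searched, and the matches are given further below.
VIL1 (chr2:219283646-219283845, plus strand): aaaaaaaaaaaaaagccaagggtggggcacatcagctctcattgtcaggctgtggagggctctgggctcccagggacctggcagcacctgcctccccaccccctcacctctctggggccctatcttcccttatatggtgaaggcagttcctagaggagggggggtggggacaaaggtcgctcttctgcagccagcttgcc
GPA33 (chr1:167059615-167059814, minus strand): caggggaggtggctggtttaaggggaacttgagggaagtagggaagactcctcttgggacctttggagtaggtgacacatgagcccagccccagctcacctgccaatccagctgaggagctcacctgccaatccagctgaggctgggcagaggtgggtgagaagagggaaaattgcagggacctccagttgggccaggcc
PHGR1 (chr15:40643034-40643233, plus strand): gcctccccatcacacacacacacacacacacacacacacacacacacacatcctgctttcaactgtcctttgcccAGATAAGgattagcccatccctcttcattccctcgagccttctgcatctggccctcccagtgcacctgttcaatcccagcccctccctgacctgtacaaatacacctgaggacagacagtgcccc
The last 2 bases of the VIL1 run lie in the first exon of another VIL1 transcript, and the other runs touch no annotated exon. The GPA33 run lies in an intron of longer GPA33 transcripts that start further upstream. Only the GPA33 run overlaps a promoter peak of its gene in COLO-205. The VIL1 run lies between peaks, and the PHGR1 peak ends upstream of the run, at chr15:40642752. There was 1 CpG dinucleotide in the VIL1 run, 1 in the PHGR1 run and 0 in the GPA33 run. Every word of 50 bases in the 3 runs occurs once in the genome, so reads from them can be placed.

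Strong distal peaks of the colon line are shown with 300 bases around their summits. A distal peak lies within 50 kb of the gene body, outside the promoter window. The runs are from 2 of the 3 genes whose strongest distal peak away from other starts had the highest -log10 q in COLO-205, and each reads along the strand of the gene it is listed with. Neither touches an annotated exon.
PHGR1 (chr15:40639763-40640062, plus strand): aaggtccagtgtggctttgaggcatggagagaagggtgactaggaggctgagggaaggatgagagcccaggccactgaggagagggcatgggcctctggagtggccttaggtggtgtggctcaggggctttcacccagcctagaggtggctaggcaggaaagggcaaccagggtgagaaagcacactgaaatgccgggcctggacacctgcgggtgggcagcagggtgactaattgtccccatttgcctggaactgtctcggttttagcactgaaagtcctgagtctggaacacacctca
GPA33 (chr1:167147831-167148130, minus strand): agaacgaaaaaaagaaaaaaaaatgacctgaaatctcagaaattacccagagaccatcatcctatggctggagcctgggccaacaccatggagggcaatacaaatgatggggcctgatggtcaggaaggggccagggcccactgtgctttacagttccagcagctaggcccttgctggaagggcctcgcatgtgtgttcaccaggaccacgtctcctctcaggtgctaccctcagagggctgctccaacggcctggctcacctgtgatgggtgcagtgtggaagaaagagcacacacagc
Neither run held a match to the 9 motifs.

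**Figure D1:**
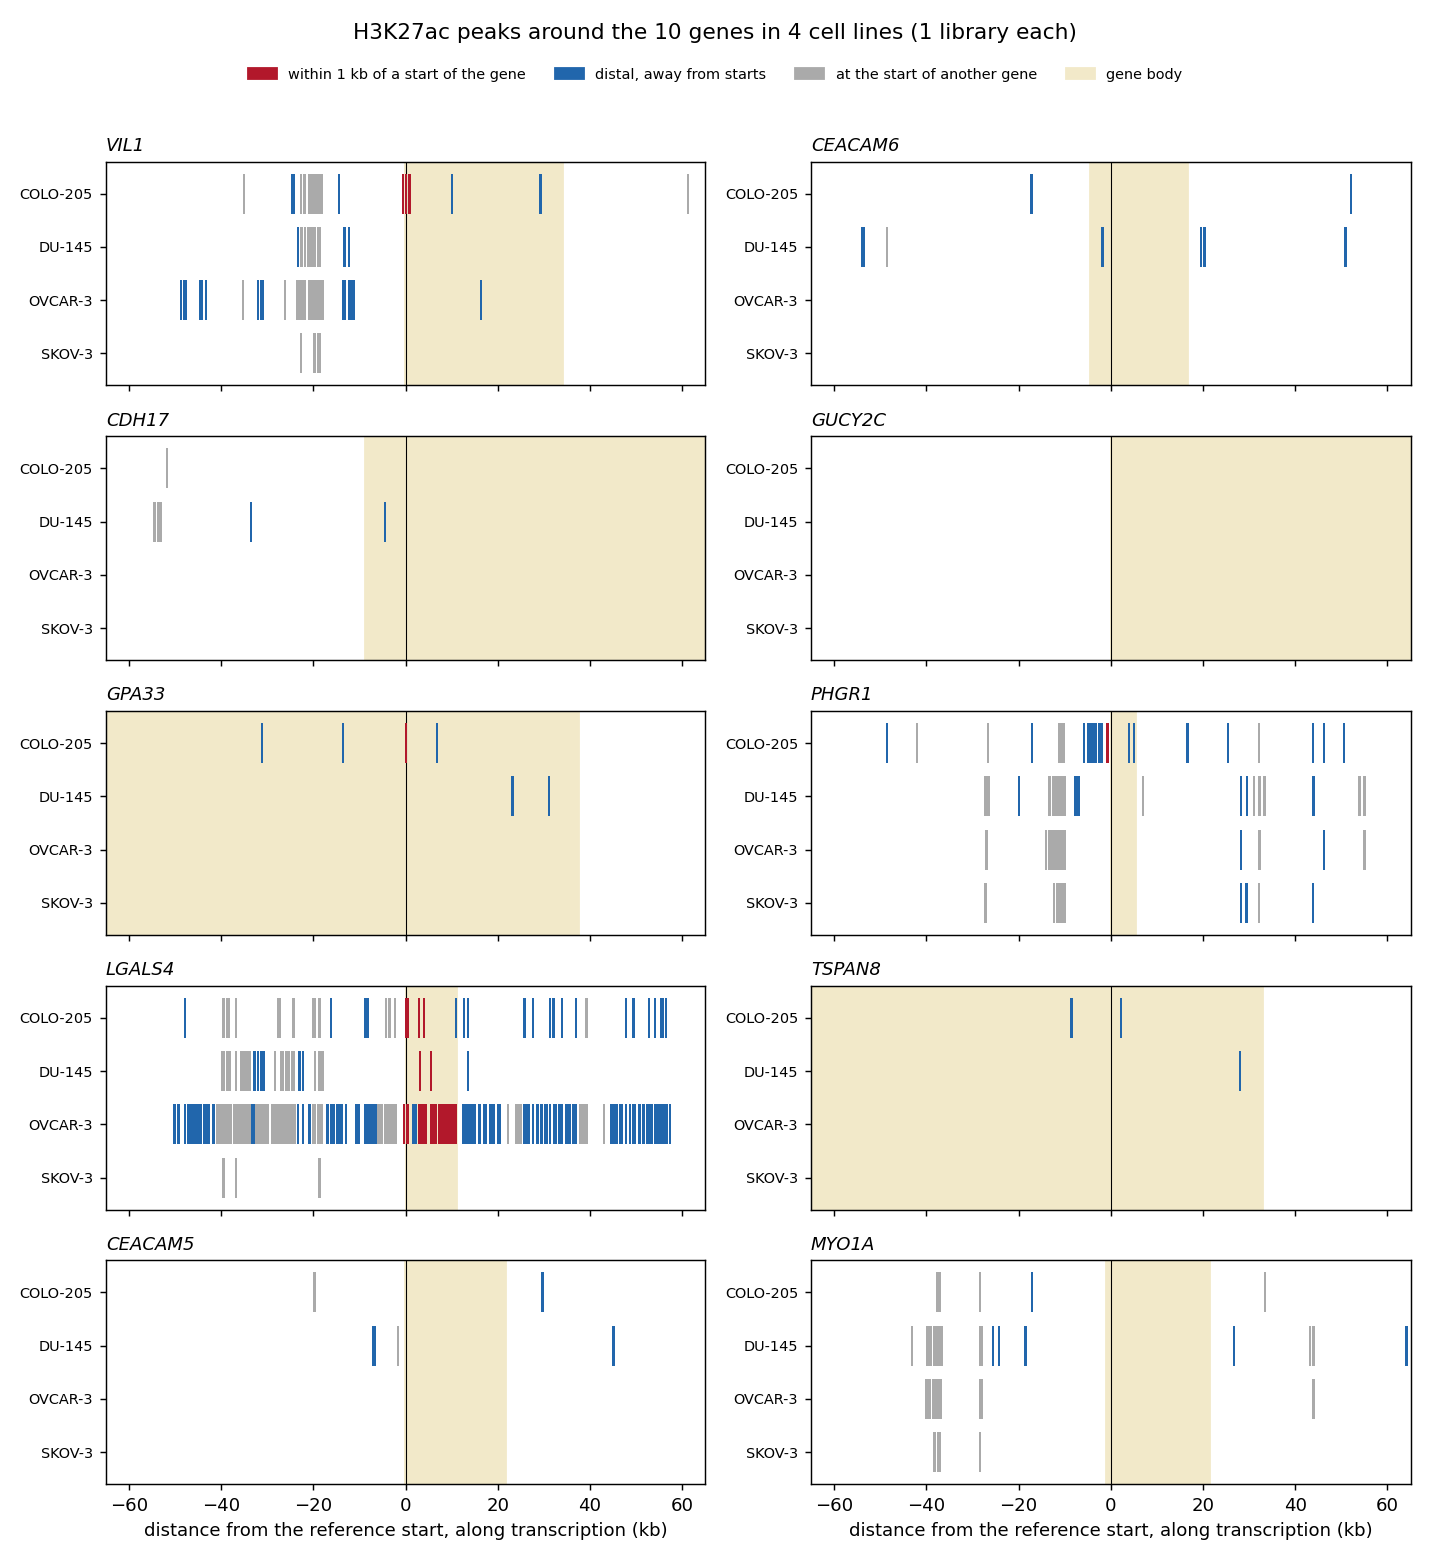
H3K27ac peaks around the reference start of each gene, with distance in kb along transcription on the horizontal axis and 1 row per line (red, promoter peaks, blue, distal peaks away from starts, grey, peaks at the start of another gene). Only peaks within 50 kb of the gene body are included, so an empty stretch of the map further out can still hold peaks. Peaks narrower than 500 bp are drawn at 500 bp, the gene body is shaded, and 15 of the included peaks, beyond 65 kb, are not drawn. COLO-205 has peaks at the starts of VIL1, GPA33, LGALS4 and PHGR1, the LGALS4 panel is filled in OVCAR-3, and the GUCY2C panel is empty.

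VIL1 encodes villin, the actin-bundling protein of the microvillus core and a marker of intestinal epithelium. It lies on the plus strand of chromosome 2, and its reference start is at 219283846 of hg19. In COLO-205 there were 3 peaks within 1 kb of a start. Distances are from the reference start to the summit, negative upstream. The first peak, at -517 bp and in intergenic sequence, was 319 bp wide, with 29 tags at the summit, 5.66-fold enrichment over the local background and a -log10 q of 12.3. The second, at 123 bp in an intron, was 241 bp wide (fold enrichment 3.78, -log10 q 8.27). The third, at 585 bp and also intronic, was 623 bp wide (fold enrichment 4.65, -log10 q 9.85). The strongest of them was higher than the strongest promoter peak of 50.6% of the protein-coding genes that had one in COLO-205. No peak of DU-145, OVCAR-3 or SKOV-3 overlapped any of the 3, and the nearest peaks to the start lay 11118 bp away in OVCAR-3, 12117 bp in DU-145 and 18306 bp in SKOV-3.

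Away from starts, VIL1 had 11 distal peaks in OVCAR-3, 5 in COLO-205, 4 in DU-145 and 0 in SKOV-3. Those of COLO-205 included intronic peaks at 10059 bp (-log10 q of 10.4) and 29241 bp (5.80), neither of which was found in another line. OVCAR-3 had a single peak inside the gene, at 16222 bp with a -log10 q of 17.8. Among the peaks away from starts, the strongest of OVCAR-3 near VIL1 lay at -31196 bp on an exon of the neighbouring gene SLC11A1, with a fold enrichment of 12.2 and 88 tags at the summit (-log10 q of 64.6). Peaks at the start of CTDSP1, another neighbour, were present in all 4 lines and included those of OVCAR-3 with the highest -log10 q near VIL1 (191). The colon line was the one with peaks at the VIL1 start, and OVCAR-3 had more peaks in the surrounding 50 kb.

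MYO1A encodes brush border myosin I, which links the actin core of the microvillus to the membrane. It had no promoter peak in any line, although it has 9 annotated starts, the most among the 10 genes. The nearest peak to its reference start lay 17017 bp away in COLO-205 and 18361 bp away in DU-145, and 27721 bp in OVCAR-3 against 28233 bp in SKOV-3. Away from starts it had 1 distal peak in COLO-205 (at -17155 bp in an intron of NEMP1, with a -log10 q of 7.77), 6 in DU-145 with a -log10 q of at most 6.92, 1 in OVCAR-3 and 0 in SKOV-3. Peaks at the starts of the neighbour NEMP1 were found in all 4 lines. Of the genes of the actin core, VIL1 was marked at its start in the colon line and MYO1A in no line.

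CDH17 encodes liver-intestine cadherin, an adhesion protein of the lateral membrane of intestinal cells. It lies on the minus strand of chromosome 8, with the reference start at 95220783, and had no promoter peak in any line. In COLO-205 the nearest peak to the start was 51594 bp away, at the start of the gene GEM. DU-145 had a peak in the CDH17 intron at -4487 bp, 381 bp wide, with a fold enrichment of 5.95, a -log10 q of 11.7 and 25 tags at the summit, and no other line had a peak there. The only distal peak of COLO-205 away from starts lay beyond the far end of the gene, at 88022 bp with a -log10 q of 6.73, and it overlapped peaks of DU-145 (13.6) and OVCAR-3 (12.5). The nearest peak to the CDH17 start was in the prostate line, 4272 bp away.

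GPA33 encodes the A33 antigen, an immunoglobulin-family glycoprotein of the intestinal cell surface that is kept by most colorectal cancers. It lies on the minus strand of chromosome 1, and its reference start is at 167059614. Its promoter peak in COLO-205 had the summit at 163 bp, inside an intron, and was 348 bp wide with a fold enrichment of 4.09, a -log10 q of 6.87 and 23 tags at the summit. This was a weak peak, higher than the strongest promoter peak of only 16.0% of the protein-coding genes that had one. No peak of another line overlapped it, and the nearest peak to the start lay 22925 bp away in DU-145, and in the ovarian lines 129447 bp (OVCAR-3) and 129842 bp (SKOV-3) away.

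COLO-205 had 5 distal peaks at GPA33, of which 3 lay inside the annotated gene, at 6965 bp (-log10 q of 8.26), -13599 bp (7.35) and -31078 bp (8.84). The other 2 lay further upstream, at -88367 bp (12.1) and -120662 bp (6.07), within reach because the annotation holds a GPA33 start 76102 bp upstream of the reference start. None of the 5 overlapped a peak of another line. DU-145 had 3 distal peaks of its own, with a -log10 q from 4.40 to 7.07, and OVCAR-3 and SKOV-3 had 0. The peak at -88367 bp was higher than 81.3% of the COLO-205 peaks away from starts. The marked sites at GPA33 lay at different positions in the colon and the prostate line.

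CEACAM5 and CEACAM6 encode glycoproteins of the carcinoembryonic antigen family that are anchored to the membrane by a lipid. They are neighbours on the plus strand of chromosome 19, with reference starts at 42212545 and 42259438, and they share peaks, which were counted once. Neither had a promoter peak in any line, COLO-205 included. In COLO-205 the 2 genes shared 1 peak between them, at 29662 bp from the CEACAM5 start and -17231 bp from that of CEACAM6, 214 bp wide with a -log10 q of 7.18 and 18 tags at the summit. CEACAM6 had 1 more, on an exon of CEACAM3 with a -log10 q of 6.36.

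DU-145 had more peaks there, 4 distal peaks away from starts at CEACAM5 and 5 at CEACAM6. The 4 at CEACAM5 are among the 5 at CEACAM6. One lay in an intron of CEACAM6 at -1836 bp from its start (-log10 q of 9.89). Another lay at 19543 bp from that start and had a fold enrichment of 6.61, a -log10 q of 18.6 and 38 tags at the summit. A DU-145 peak at -1648 bp from the CEACAM5 start (-log10 q of 7.37) was counted at the start of its neighbour CEACAM7, of which it is the DU-145 promoter peak. CEACAM7 also had a promoter peak in COLO-205 (6.87). With a promoter window of 2.5 kb both CEACAM5 and CEACAM6 would count as marked in DU-145. OVCAR-3 and SKOV-3 had 0 distal peaks at either gene. Members of this family resemble each other in sequence, but within 1 kb of the starts 99.8% of the 50-base words of CEACAM5 and 99.9% of those of CEACAM6 occur once in the genome.

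TSPAN8 encodes a tetraspanin, a protein that organises other proteins in the membrane. It had no promoter peak, and its 1-Mb surroundings held the fewest peaks of the 10 genes in each line, with 5 peaks in COLO-205, 3 in DU-145 and, of the ovarian lines, 2 in OVCAR-3 and 0 in SKOV-3. Its strongest peak in COLO-205 lay in an intron at 2122 bp, 227 bp wide with a fold enrichment of 6.03, a -log10 q of 10.4 and 22 tags at the summit, and it would count as a promoter peak with a window of 2.5 kb. COLO-205 had 2 further intronic peaks, at -8301 bp (5.78) and -218939 bp (4.05). DU-145 had 1, at 27948 bp (10.2), and none of these peaks was found in more than 1 line.

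LGALS4 encodes galectin-4, a lectin of the intestinal epithelium that binds glycans of the apical membrane. It was the only one of the 10 genes with a promoter peak in more than 1 line. In COLO-205 it had 4, at 26 bp (-log10 q of 9.27 and 43 tags at the summit), 532 bp (7.78), 2965 bp (9.54) and 3977 bp (10.9), of which the first 2 were at the reference start and the others at internal starts of the gene. In DU-145 it had 2, at 3018 bp (4.87) and 5509 bp (4.77), both at internal starts and both short of the threshold when the tags were scaled to the depth of SKOV-3. In OVCAR-3 it had 8, from -276 bp to 10954 bp, with a -log10 q between 12.95 and 48.8. In SKOV-3 it had 0, and the nearest peak was 18582 bp from the start.

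The mark at LGALS4 in OVCAR-3 lay in a region that is almost filled with peaks. In the 1 Mb around the LGALS4 start, 868 OVCAR-3 peaks covered 67.6% of the bases, a higher cover than at 99.9% of protein-coding genes, where the median over protein-coding genes was 1.27%. The same window was covered to 7.94% by peaks of DU-145, 4.36% by those of COLO-205 and 0.689% by those of SKOV-3. LGALS4 had 62 of the 77 distinct distal peaks of the 10 genes in OVCAR-3, the strongest at -43449 bp with 33.4-fold enrichment and a -log10 q of 230. How far this cover sets the LGALS4 counts in OVCAR-3 was not tested.

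GUCY2C encodes guanylate cyclase C, the receptor for the peptide hormones guanylin and uroguanylin and for the heat-stable toxin of Escherichia coli. It was the barest of the 10 genes, with no promoter peak and no distal peak away from starts in any line. The nearest peak to its start lay 51786 bp away in COLO-205, 72699 bp in OVCAR-3, 73939 bp in DU-145 and 330687 bp in SKOV-3. The 2 peaks of COLO-205 and the 1 of DU-145 within 50 kb of the gene body lay at the start of PLBD1. The genes of its ligands, GUCA2A and GUCA2B, also had no promoter peak in any line, and each had 1 distal peak in COLO-205 and 0 in the other lines. Within 1 kb of the GUCY2C start 86.7% of the 50-base words occur once in the genome, the lowest share of the 10 genes.

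PHGR1 encodes a small protein rich in proline, histidine and glycine that is expressed in the intestinal epithelium. It lies on the plus strand of chromosome 15, and its single annotated start is at 40643234. Of VIL1, GPA33 and PHGR1, the members with a promoter peak in COLO-205 alone, PHGR1 had the strongest. Its promoter peak, at -705 bp, was 614 bp wide with a fold enrichment of 6.57, a -log10 q of 19.0 and 40 tags at the summit, higher than the strongest promoter peak of 73.0% of the protein-coding genes with one in this line.

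The promoter peak of PHGR1 was the last of a series of 6 peaks upstream of the gene, from chr15:40637196 to chr15:40642752. The series spanned 5557 bp, of which the peaks covered 3971 bp (71.5%), and none of the other lines had a peak overlapping it. From the gene outwards, the other 5 summits lay at -2530 bp (-log10 q of 27.9), -3321 bp (43.1), -4172 bp (17.7), -4731 bp (15.2) and -5827 bp (10.97). The peak at -3321 bp was 921 bp wide, with a fold enrichment of 9.73 and 69 tags at the summit, and it was higher than 99.0% of the COLO-205 peaks away from starts. Its central 300 bases are the first of the distal runs printed above.

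The surroundings of PHGR1 outside this series were marked in the other lines too. DU-145 had a peak at -7055 bp, 1241 bp wide with a -log10 q of 14.9, which ended before the COLO-205 series began. All 4 lines had peaks at the start of the neighbour CCDC9B, with summits from -14042 bp to -9881 bp. Further downstream, SKOV-3 had 3 distal peaks away from starts, at 28194 bp, 29412 bp and 43876 bp, the only such peaks of this line at any of the 10 genes. In the 1 Mb around the start COLO-205 peaks covered 4.20% of the bases, a higher cover than at 89.0% of protein-coding genes in that line. The cover was 4.95% in OVCAR-3 (higher than at 88.3%), 4.52% in DU-145 (78.3%) and 1.06% in SKOV-3 (91.5%), so the wider region was well covered in each line.

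**Figure D2:**
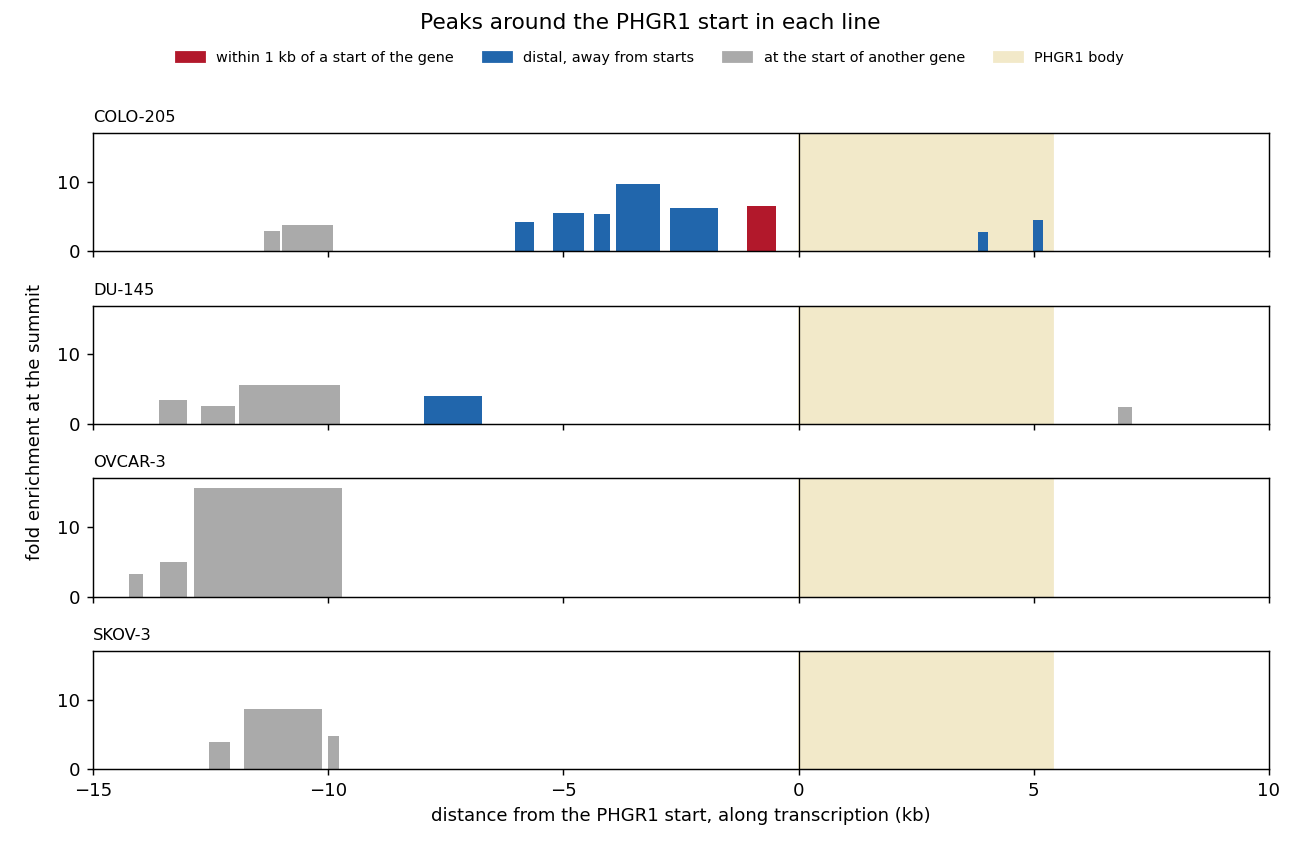
Fold enrichment at the summit of each peak from 15 kb upstream to 10 kb downstream of the PHGR1 start, 1 panel per line, with the width of a bar equal to the width of the peak. The 6 upstream peaks are present in COLO-205 alone and reach a fold enrichment of 9.73, while the peaks near the CCDC9B start are present in all 4 lines.

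Across the 10 genes, the strength of the promoter peaks of the colon line was near that of other genes. The strongest promoter peaks of VIL1, GPA33, LGALS4 and PHGR1 in COLO-205 had a median -log10 q of 11.6 and a median fold enrichment of 5.22, where the protein-coding genes with a promoter peak had medians of 12.1 and 4.52. In OVCAR-3 the strongest promoter peak of LGALS4 (48.8) was likewise near the median of 42.7. It lay at an internal start, and the OVCAR-3 peaks at the reference start were below that median (20.1 and 12.95). The strongest LGALS4 peak in COLO-205 also lay at an internal start. In DU-145 the strongest promoter peak of LGALS4 was weak, with a -log10 q of 4.87 against a median of 21.5. These values are set by each library's depth and background, so they were not ranked between lines.

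**Figure D3:**
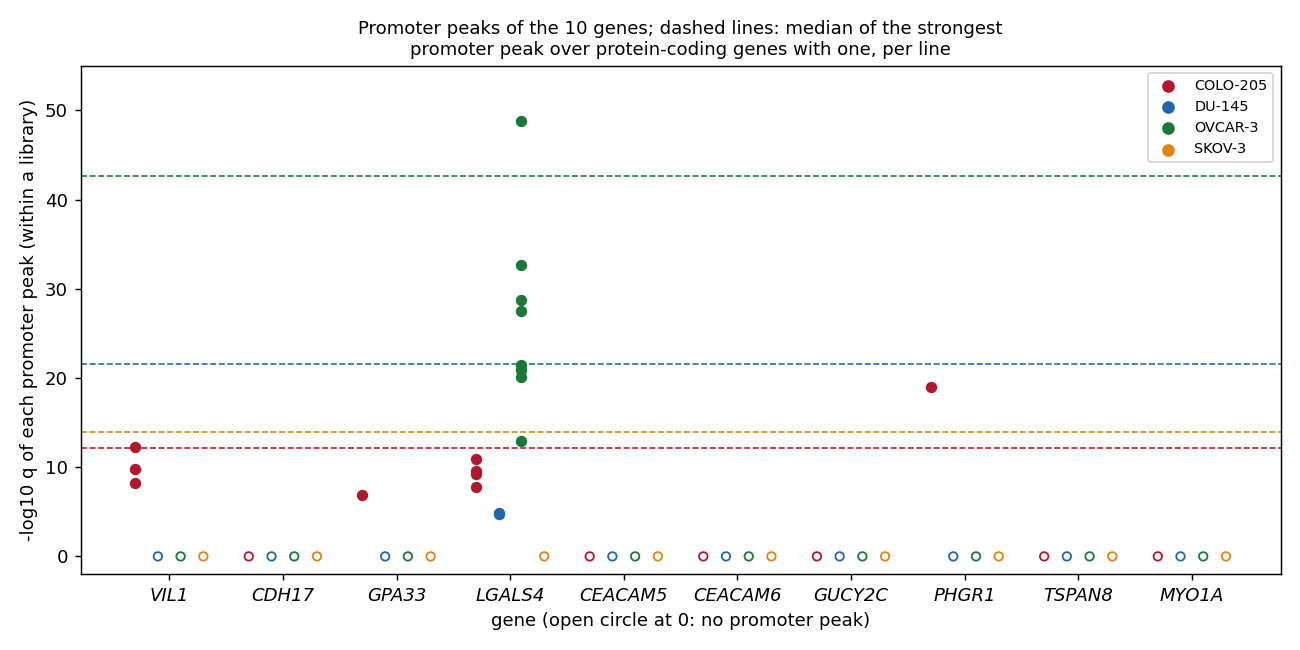
The -log10 q of every promoter peak of the 10 genes, with 1 colour per line, filled circles for peaks and open circles at 0 for a gene without one. The dashed lines are the medians over protein-coding genes with a promoter peak, from 12.1 in COLO-205 to 42.7 in OVCAR-3, and only LGALS4 has filled circles in more than 1 colour.

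What the 10 promoters share is a low content of CpG dinucleotides. From 250 bases before to 50 after the reference start, the ratio of observed to expected CpG lay between 0 at GPA33 and 0.345 at CDH17. All 10 were below the limit of 0.6 used here for a CpG-poor promoter, where 33.0% of all protein-coding promoters were. Over the 6623 genes with a CpG-poor promoter, 25.99% had a promoter peak in COLO-205, 25.4% in OVCAR-3, 23.8% in DU-145 and 8.46% in SKOV-3, and 9.66% had one in COLO-205 alone. Beside these shares, 4 of 10 in COLO-205 is above the share of CpG-poor genes and below that of all genes. The 1 of 10 in DU-145 and in OVCAR-3 and the 0 in SKOV-3 are below both.

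**Figure D4:**
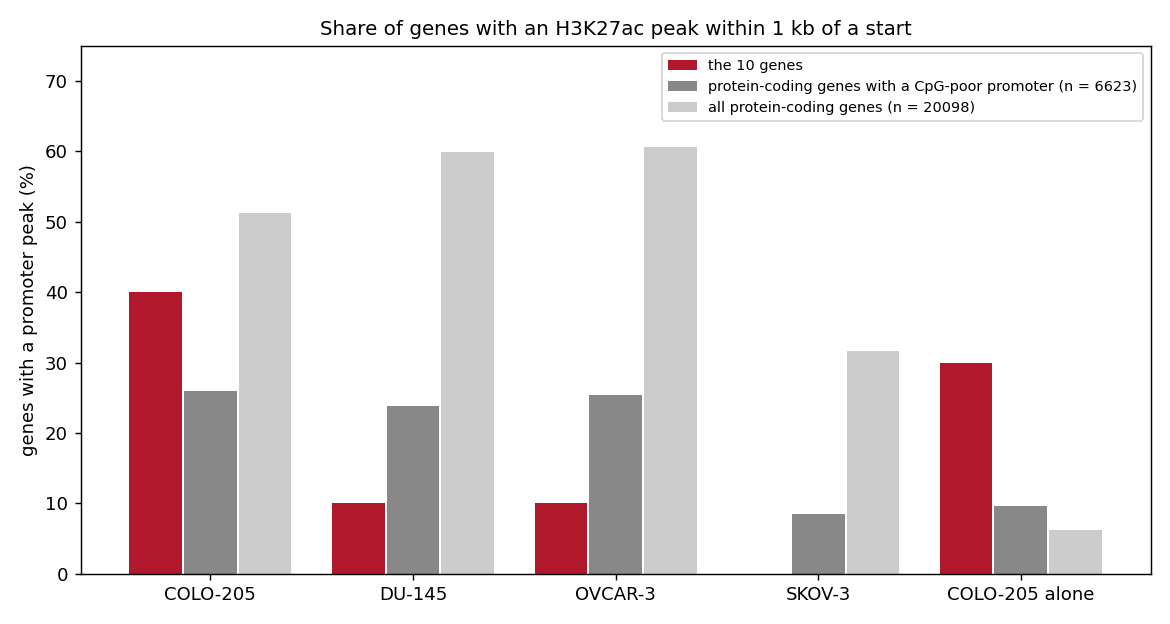
Percent of genes with a promoter peak in each line and in COLO-205 alone, for the 10 genes, the 6623 protein-coding genes with a CpG-poor promoter and all 20098 protein-coding genes. In COLO-205 alone the bar of the 10 genes is at 3 of 10, beside 9.66% and 6.18%.

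The motifs of intestinal transcription factors were found at few of the 10 promoters. Fixed letters were searched on both strands in the 300 bases of each promoter. The motif of CDX factors, with the letters TTTATG, was found at CDH17 and TSPAN8 (7.39% of all protein-coding promoters), and that of HNF4, CAAAGTCCA, at MYO1A (0.328%). That of the GATA factors, with the letters AGATAAG, was found at PHGR1 (1.93%), where it begins 125 bases before the start and is the match in capitals above. The ETS motif AGGAAGT was found at LGALS4 and PHGR1 (7.85%), HOXB13 CAATAAA at CDH17 and GUCY2C (2.63%), and AP-1 TGANTCA at CDH17 (5.43%). The letters of the TATA box, TATAAA, were found at CEACAM6, GUCY2C and MYO1A (9.80%). From the reference start, these matches began at -139 bp at CEACAM6, -110 bp at GUCY2C and -220 bp at MYO1A. Any position in the window was accepted, so the matches do not show that these promoters have a TATA box. No promoter of the 10 held HNF1 GTTAATNAT (0.508%) or the KLF and SP motif GGGGCGGGG (24.3%). In the 300 bases at the 51 distal COLO-205 summits, AGGAAGT was found in 4 (7.84%, against 3.97% of 68486 COLO-205 summits away from starts). TATAAA was found in 3 (5.88%, against 6.34%), and the GATA and AP-1 motifs in 1 each (1.96%, against 1.21% and 4.90%). The CDX, HOXB13, HNF4, HNF1, KLF and SP motifs were in none, where they were in 5.30%, 1.79%, 0.299%, 0.187% and, for the shared KLF and SP letters, 1.77% of all such summits. These are matches of letters in a window, and say nothing of whether a factor binds.

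Distal peaks were found at most of the genes in COLO-205 and also in DU-145. At least 1 distal peak away from starts was found at 9 of the 10 genes in COLO-205 (73.8% of all protein-coding genes), at 9 in DU-145 (63.6%), at 5 in OVCAR-3 (59.4%) and at 1 in SKOV-3 (21.9%). GUCY2C was the gene without one in COLO-205 and in DU-145. The median number per gene was 4 in DU-145, 2.5 in COLO-205, 0.5 in OVCAR-3 and 0 in SKOV-3, where the medians over protein-coding genes were 2, 2, 1 and 0 in the same order. The distinct distal peaks numbered 77 in OVCAR-3, 51 in COLO-205, 34 in DU-145 and 3 in SKOV-3, and without LGALS4 they numbered 15, 31, 27 and 3. With peaks less than 350 bp apart merged there were 32 in OVCAR-3 and 44 in COLO-205, so the order of these lines rests on how close peaks are counted. Of the 51 in COLO-205, 23 lay in gene introns, 19 in intergenic sequence and 9 on exons.

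The distal peaks of COLO-205 were shared mainly with OVCAR-3, and mainly at LGALS4. Of the 51, 23 overlapped a peak of another line by at least 1 bp (45.1%), 22 in OVCAR-3, 3 in DU-145 and 1 in SKOV-3, where 15.9% of the 68486 COLO-205 peaks away from starts did so. Of the 77 distal peaks of the 10 genes in OVCAR-3, 19 overlapped a COLO-205 peak (24.7%). All 20 distal peaks of COLO-205 at LGALS4 overlapped an OVCAR-3 peak, in the densely covered region described above. Without LGALS4, 3 of 31 were shared (9.68%), 1 at CDH17 and 2 downstream of PHGR1.

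**Figure D5:**
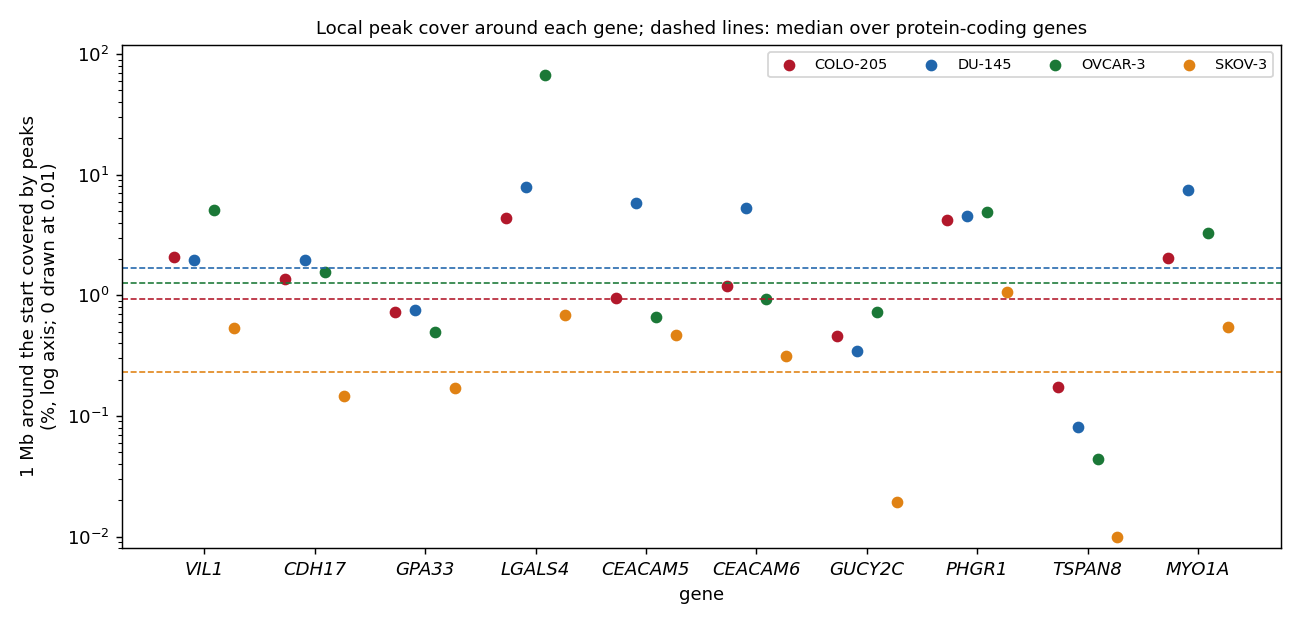
Percent of the 1 Mb around each reference start that is covered by peaks, on a log axis, with 1 colour per line and a value of 0 drawn at 0.01. The dashed lines are the medians over protein-coding genes, and LGALS4 in OVCAR-3, at 67.6%, stands above all other values.

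The cover of the wider region differed widely between the genes. In COLO-205 the 1 Mb around the start was covered to between 0.175% at TSPAN8 and 4.36% at LGALS4, with a median over protein-coding genes of 0.935%. PHGR1 and VIL1 were above that median, at 4.20% and 2.08%, and GPA33 was below it, at 0.731%. CEACAM5 and CEACAM6 were at 5.87% and 5.34% in DU-145, where the median was 1.68%, beside 0.957% and 1.20% in COLO-205. In COLO-205 the cover at GPA33 was higher than at 43.7% of protein-coding genes.

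The other genes of the brush border were counted in lists chosen by function, to be read beside the shares over all protein-coding genes given above (51.3% in COLO-205, 60.6% in OVCAR-3, 60.0% in DU-145 and 31.7% in SKOV-3). Of 11 genes of brush border structure, 9 had a promoter peak in COLO-205, 9 in OVCAR-3, 7 in DU-145 and 2 in SKOV-3, of which the count in DU-145 is near the share of all genes and that in SKOV-3 below it. Only CDHR5, an adhesion protein at the tips of microvilli, had one in COLO-205 alone (-log10 q of 5.07). CDHR2, its partner in linking the tips, had 10 promoter peaks in COLO-205 with a -log10 q of up to 21.8, and 1 in each other line. ANKS4B, a scaffold of the same tip complex, had none. The list also held genes with more promoter peaks in other lines. PDZK1 had none in COLO-205, but 2 in DU-145 and 4 in OVCAR-3 (-log10 q of up to 42.2). ESPN had 5 in COLO-205 (up to 7.84) and 14 in OVCAR-3 (up to 34.6).

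Few of the enzymes and transporters had a promoter peak. Of 8 brush border enzymes, among them SI, LCT and DPP4, only ANPEP, which encodes aminopeptidase N, had a promoter peak, in COLO-205 (8.69) and in SKOV-3 (5.71). Away from starts, 5 of the 8 had distal peaks in COLO-205 (73.8% of all genes), with 9 at ALPI, 7 at ANPEP, 3 at TREH, 2 at LCT and 2 at MGAM. DU-145 had 7 at TREH, 4 at ANPEP and 1 at MEP1A, OVCAR-3 had 2 at MGAM and 1 at MEP1A, and SKOV-3 had 3 at ANPEP. Of 10 genes of absorption and secretion in the colon, among them SLC26A3, AQP8 and FABP1, none had one in COLO-205, and CA2, a carbonic anhydrase, had one in DU-145 and in OVCAR-3. Of 15 relatives of the 10 genes, 8 had a promoter peak in DU-145, 7 in COLO-205, 6 in OVCAR-3 and 4 in SKOV-3, and none in COLO-205 alone, which are counts near or below the shares of all genes. VILL, a relative of villin, had one in COLO-205 (11.1) and in DU-145 (10.2), and the galectin gene LGALS3 had one in all 4 lines.

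Among the 1242 protein-coding genes with a promoter peak in COLO-205 alone, PHGR1 had rank 78 by -log10 q, VIL1 rank 216 and GPA33 rank 812. All 1242 share the pattern of PHGR1, VIL1 and GPA33 over the 4 lines, and the 5 with the highest -log10 q among them were TSPO2, DNAH8, TCF21, NCR2 and KCNK16, with a -log10 q from 58.3 to 74.1. All 5 lie on chromosome 6, where COLO-205 peaks covered between 18.0% and 36.1% of the 1 Mb around their starts. At PHGR1 the same cover was 4.20%, at VIL1 2.08% and at GPA33 0.731%.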

How the data were processed

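H3K27ac ChIP-seq was performed on 4 cell lines, 1 library each, with input DNA as the control in the protocol. Reads were aligned by the authors to hg19 (Bowtie2 2.1.0 in the submitters' processing notes), and narrow peaks were called per library at a q-value of 0.001 (MACS2 2.1.0.20150603). In the deposited lists each peak has a score, a fold enrichment, a −log10 p, a −log10 q and a summit position. These come from the authors' peak caller, run within 1 library, so they are not on a common scale across lines. Close peaks were merged according to the methods. The deposited lists still hold neighbours less than 350 bp apart, so merging was an alternative.

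The pileup of tags at each summit was recovered as the whole number whose Poisson p fits the deposited −log10 p within 0.001, in at least 99.9% of peaks, and the tags per library were computed from the lowest background and 2700000000 genome positions. The recovery of pileups and the assignment of peaks to genes were tested on simulated data. The computation of tags per library was not. Genes and starts were those of GENCODE v44 lifted to GRCh37, on chromosomes 1 to 22 and X. The reference start is that of the MANE Select, else the canonical, else the longest transcript. A distal peak counted as away from starts if it lay outside 1 kb of every start of another protein-coding gene. Promoter sequence, CpG ratios, motif letters and the occurrence of 50-base words were taken from the GRCh37 assembly, whose chromosome lengths hold all peak coordinates. CpG ratios and 50-base words were added after seeing the data. The symbol SLC9A3R1 was found as NHERF1.

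All 10 members are named, with the listed genes marked in COLO-205 alone, the ligands of GUCY2C and the 5 other genes marked in COLO-205 alone with the highest −log10 q. Other genes of the lists are given by count, and those named outside this rule (neighbours of the members, CDHR2, ANKS4B, PDZK1, ESPN, the brush border enzymes, CA2, VILL, LGALS3, CEACAM7 and markers) were chosen after their values were seen. The members and the lists were chosen with earlier results of these data known. Some of the prostate markers and 1 distal sequence are not reported here. No test between lines was made. Python 3.11.15, numpy 2.4.6, pandas 2.3.3, scipy 1.17.1 and matplotlib 3.10.9 were used.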

Additional observations from a re-analysis of the deposited data

How the results depend on the processing

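Of 111 counts recomputed under 13 alternatives, 75 stayed within 1.5 times the reported count, and the others follow. The 1 gene with a promoter peak in DU-145, LGALS4, fell to 0 when peaks needed a -log10 q of 5 or 10 or more, at the depth of the shallowest library, with equal numbers of peaks, with a promoter window of 500 bp and with reference transcripts only, and became 3 with a window of 2.5 kb (distal peaks in DU-145 then 22). With equal numbers of peaks (the 14001 highest of each list), 1 gene, PHGR1, had a promoter peak in COLO-205 and 1 in COLO-205 alone, and the distal peaks numbered 6 in COLO-205, 1 in DU-145 and 10 in OVCAR-3, with 0 of those of COLO-205 shared. With a -log10 q of at least 10 GPA33 lost its promoter peak, and 16 distal peaks in COLO-205 and 14 in DU-145 were left, with 7 shared. Merging left 32 distal peaks in OVCAR-3 and 44 in COLO-205, which reverses their order. With a distal window of 20 kb the counts were 33 in OVCAR-3, 32 in COLO-205, 17 in DU-145 and 0 in SKOV-3, with 10 shared, and with 100 kb they were 98 in COLO-205, 55 in DU-145 and 139 in OVCAR-3, with 50 shared. With peaks at the starts of other genes kept, they were 80 in COLO-205, 70 in DU-145 and 18 in SKOV-3, with 46 shared. Without LGALS4, an alternative chosen after seeing the data, 0 genes had a promoter peak in DU-145 and 0 in OVCAR-3, and 31 distal peaks in COLO-205 and 15 in OVCAR-3 were left, with 3 shared. Apart from the construction of each alternative, the cause of these changes was not tested. No paired analysis was possible because each line has a single library. Depth limits the peaks that can be seen, to a summit of at least 11 to 14 tags.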
